A study of Mus musculus with 9 samples.

Results

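The 10 stromal matrix genes outside the collagen families described here in the mouse epididymis are Dcn, Lum, Mgp, Sparc, Ogn, Bgn, Fn1, Postn, Apod and Sfrp1. They were chosen by name from the 32195 genes in the table of UMIs (unique molecular identifiers, 1 per captured transcript), and all 10 were measured. The study separated untreated epididymides of C57BL/6 mice (C57BL/6J in the study's methods) into caput, corpus and cauda, the segments that spermatozoa pass in that order, at postnatal day 42 (P42) and day 56 (P56), and captured single cells on a microfluidic chip. Each segment gave 1 library at P42 and 2 at P56, 9 in all, and every library pooled tissue of 5 mice. The 3 segments of a pool came from the same mice. P42 is 1 pool, so that age and pool cannot be told apart there, and each P56 pool is called a replicate.

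The extracellular matrix of connective tissue is built by fibroblasts and smooth muscle from collagen fibrils, small leucine-rich proteoglycans that bind and space these fibrils, and glycoproteins that link fibrils to cells. In the epididymis, this stroma lies between the turns of the duct and, with layers of myoid cells, surrounds its epithelium. Decorin (Dcn), lumican (Lum), osteoglycin (Ogn) and biglycan (Bgn) belong to the small leucine-rich proteoglycans and their relatives. Osteonectin (Sparc) and periostin (Postn) are matricellular proteins that bind collagen or cells without forming fibrils, fibronectin (Fn1) is the adhesive glycoprotein that integrins bind, and matrix Gla protein (Mgp) inhibits calcification. Apolipoprotein D (Apod) is a secreted carrier of small lipids, and Sfrp1 is a secreted protein that binds Wnt ligands.

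In the mouse genome (GRCm38) Lum and Dcn lie on the same strand of chromosome 10, with 46984 bases between them, and the other 8 genes lie on chromosomes 6 (Mgp), 11 (Sparc), 13 (Ogn), X (Bgn), 1 (Fn1), 3 (Postn), 16 (Apod) and 8 (Sfrp1). RefSeq promoter windows of GRCm38.p6 were matched for 5 of the 10 genes (Postn, Sparc, Ogn, Apod and Bgn). The 250 bases before the start of transcription are given for 4 of them as examples. These are Postn at chr3:54360857-54361106 (plus strand), Bgn at chrX:73483351-73483600 (plus strand), Ogn at chr13:49607765-49608014 (plus strand) and Apod at chr16:31314809-31315058 (minus strand). Capitals mark TATAAA or GGGCGG, on either strand, and all 4 sequences are written 5′ to 3′ on the strand of the gene.
Postn: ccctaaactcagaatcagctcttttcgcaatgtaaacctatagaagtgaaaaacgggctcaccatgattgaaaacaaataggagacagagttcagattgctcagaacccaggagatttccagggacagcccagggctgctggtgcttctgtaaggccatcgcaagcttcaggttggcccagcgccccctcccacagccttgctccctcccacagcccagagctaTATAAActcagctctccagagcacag
Bgn: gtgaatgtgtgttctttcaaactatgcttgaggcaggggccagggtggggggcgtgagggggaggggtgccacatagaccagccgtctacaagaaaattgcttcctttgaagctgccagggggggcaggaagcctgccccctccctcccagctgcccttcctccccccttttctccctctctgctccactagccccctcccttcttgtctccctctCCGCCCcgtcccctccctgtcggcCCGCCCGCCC
Ogn: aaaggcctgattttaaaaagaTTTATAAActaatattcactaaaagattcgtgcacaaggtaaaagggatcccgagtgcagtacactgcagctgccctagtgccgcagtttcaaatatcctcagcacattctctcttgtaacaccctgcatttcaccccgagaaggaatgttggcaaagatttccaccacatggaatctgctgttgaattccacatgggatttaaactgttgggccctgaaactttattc
Apod: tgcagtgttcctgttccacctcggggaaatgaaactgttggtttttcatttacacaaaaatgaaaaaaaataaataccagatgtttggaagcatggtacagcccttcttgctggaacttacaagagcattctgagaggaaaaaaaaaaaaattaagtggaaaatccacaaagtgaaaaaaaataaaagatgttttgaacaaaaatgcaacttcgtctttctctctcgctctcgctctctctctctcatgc
The window printed for Postn held a TATAAA at position -26 from the start of transcription, while a second RefSeq start of the gene, with its window at chr3:54359017-54359316, held none and had a CCAAT at 24. Ogn held 2 overlapping TATAAA at -229 and -227, and Bgn held 3 GGGCGG at -34, -10 and -6, of which the last 2 overlap. Of 32851 windows of 300 bases, 13.6% held TATAAA and 35.7% held GGGCGG. No CCAAT (37.4% of windows) and no TGANTCA (7.81%) was found in these 4 windows, and none of the 4 motifs was found in those of Apod and Sparc. These matches describe letters in a window and no binding.

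After the limits on cells were applied, the libraries held 19248247 to 40879086 UMIs, with a median of 3088.5 (cauda at P42) to 7644 UMIs per cell. Cells were clustered without the 10 genes, and clusters were named after marker genes. The classes used most below held 3649 fibroblast-like cells (1 cluster, in which all 12 fibroblast markers were at least 2-fold above the other cells), 1235 myoid-like cells (2 clusters, each with 9 of 10 smooth muscle markers raised) and 896 endothelial-like cells (2 clusters, with 10 and 9 of 10 markers raised). Clusters left without a name held 2705 cells, which count in the shares of cells and of UMIs and in sums over all cells. Libraries shared between 1 and 27 cell barcodes, at most 0.641% of those of a library. The cauda library at P42 stood apart. Its halo/T-, sperm- and erythrocyte-like cells, which are not expected to make matrix and are called background cells here, held Dcn at 5992 CPM (UMIs of a gene scaled to the total UMIs of the same cells), against 137 to 1170.2 in the other 8 libraries. Levels are CPM of UMIs summed over the cells of a class in a library. They are compared within a gene and not between genes, since how well the transcripts of each gene were captured was not measured.

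Fibroblast-like cells were the class with the highest level of 9 genes in most libraries. Their share of a gene's UMIs differed between the ages, as did their share of the cells, which ran from 2.74% to 29.1% by library. Over the 3 P42 libraries they contributed 61.5% (Apod) to 75.7% (Sfrp1) of the UMIs of the 9 genes other than Fn1, whose share was 33.0%. Over the 6 P56 libraries the share was 69.4% for Lum, 55.7% for Dcn, 47.5% for Ogn, 46.5% for Mgp, 44.3% for Bgn, 41.4% for Sfrp1, 35.8% for Sparc, 35.0% for Apod, 28.4% for Postn and 15.0% for Fn1. Shares pooled over all 9 libraries rest in part on the P42 cauda. Without it, an alternative chosen after seeing the data, that of Fn1 went from 29.5% to 17.2%, that of Sparc from 59.6% to 46.6% and that of Postn from 64.3% to 46.0%. Within each library, the fibroblast-like level was the highest of all classes in 9 of 9 libraries for Dcn, Lum, Mgp, Ogn and Sfrp1, in 8 for Sparc, Bgn and Apod, in 6 for Postn and in 3 for Fn1. The median ratio to the next class was 15.5 for Lum, 8.73 for Dcn, 7.21 for Sfrp1 and 6.00 for Apod, and 0.788 for Fn1. Against the background cells of the same library, fibroblast-like Dcn was 3.15-fold higher in the P42 cauda and 10.7- to 40.3-fold higher in the others, and no member other than Fn1 and Postn fell below the background in any library.

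**Figure D1:**
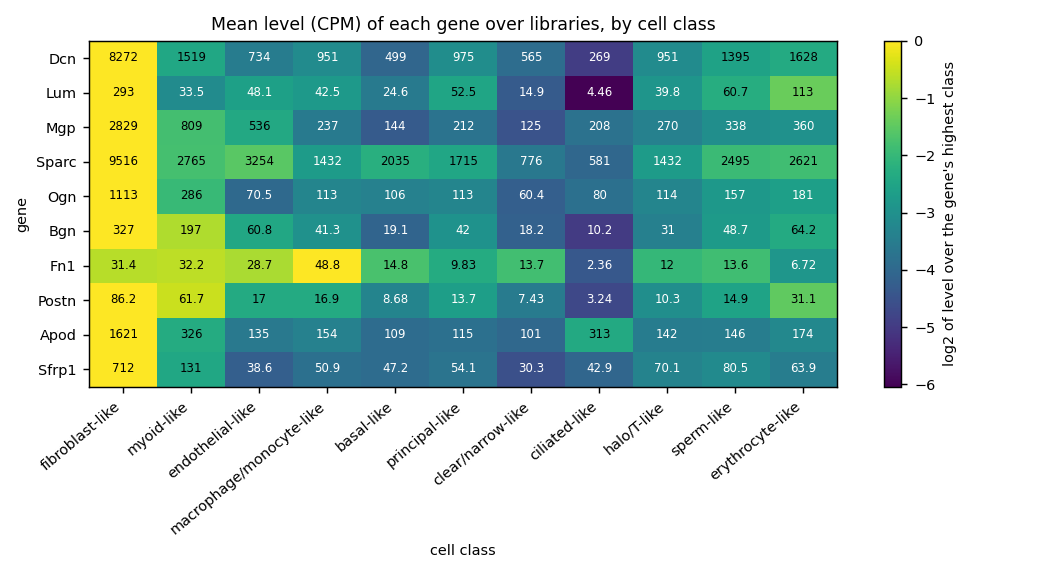
Mean level (CPM, numbers in the cells) of each of the 10 genes over the libraries with at least 20 cells of a class, by cell class, coloured by the log2 of the level over the gene's own highest class. Fibroblast-like cells hold the highest mean for 9 genes, the myoid-like column comes close in Postn, and the mean of Fn1 is 48.8 CPM in macrophage/monocyte-like, 32.2 CPM in myoid-like and 31.4 CPM in fibroblast-like cells. The macrophage/monocyte-like mean of Fn1 rests on the P42 corpus and P42 cauda (177 and 201 CPM, against 0.932 to 20.7 CPM in the other 7 libraries) and is 29.8 CPM without the P42 cauda.

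With the background classes left out of the order, neighbours overlapped in their mean ± SD over libraries, except that fibroblast-like cells stood clear of the next class, myoid-like cells, for Dcn and Sfrp1. For Dcn these were 8272 ± 4692 and 1519 ± 1953 CPM (SD, n = 9 libraries each), while erythrocyte-like cells, a background class, were at 1628 ± 3447 CPM (n = 8) and overlapped with the fibroblast-like range. For Mgp, myoid-like cells (809 ± 827 CPM, SD, n = 9 libraries) came next and were above the endothelial-like cells (536 ± 299 CPM, n = 9) in 5 of 9 libraries, so that these neighbours did not differ beyond their spread. For Sparc, endothelial-like cells (3254 ± 2323 CPM, n = 9) came next and were above the myoid-like cells (2765 ± 3565 CPM, n = 9) in 7 of 9 libraries. Apod in ciliated-like cells (313 CPM, measured in the caput) is set against a caput background of 187, 252 and 339 CPM. In principal-like cells Apod was at 179, 262 and 254 CPM in the caput, or 0.958-, 1.04- and 0.748-fold of the background. In the corpus and cauda it was at 0.227- to 1.06-fold. Levels near the background cannot show whether either class expresses Apod, and this was not tested.

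Endothelial-like cells held Sparc and Mgp above the background in 8 of 9 libraries each. Endothelial-like Sparc stood at 6086, 2092 and 2985 CPM in the caput (P42, P56 replicate 1 and P56 replicate 2, the order kept throughout), at 3574, 1563 and 1752 CPM in the corpus and at 8002, 2179 and 1058 CPM in the cauda. It was the exception in the P42 cauda, where the background reached 10242 CPM, and it exceeded the fibroblast-like level of its library in the caput of P56 replicate 2. A small endothelial-like cluster led by Mmrn1, Prox1 and Lyve1, genes known from lymphatic endothelium, had at least 20 cells in the P42 caput and the P42 corpus. In these libraries it held 154 and 129.6 CPM of Fn1, against 20.6 and 23.8 CPM in the larger endothelial-like cluster and 18.9 and 18.8 CPM in background cells. Its Postn stood at 178 and 58.1 CPM, against 27.3 and 31.7 CPM in the larger cluster, and its Bgn at 122 and 107 CPM, against 68.6 and 83.2 CPM, from 13 to 29 UMIs per value.

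Endothelial-like Fn1 was above the background in 8 of 9 libraries, Bgn in 7 and Postn in 6. It was so by more than 2-fold in 4 libraries for Bgn, in 5 for Postn and, for Fn1, in 3 of the 6 whose background was above 0. Basal-like cells were above it in 7 libraries for Sparc (4 by more than 2-fold), in 7 for Fn1 and in 6 for Ogn (0). For Fn1, where any UMI exceeds a background of 0, 1 of the 6 libraries with a background above 0 passed 2-fold. Their median ratio was 1.12. Basal-like cells, the epithelial cells at the base of the duct, held 4065, 1864 and 2249 CPM of Sparc in the caput, where the background was 1378, 171 and 502 CPM, while in the corpus (1979, 403 and 460.5 CPM) and the cauda (5639.5, 939 and 720.5 CPM) they were at 0.551- to 2.06-fold of it. The macrophage/monocyte-like cluster led by Ear2, Lyz1, H2-Ab1 and Ccr2 held 382 CPM of Fn1 in the P42 corpus and 550.3 CPM in the P42 cauda, and 74.6 and 30.1 CPM in the corpus of the P56 replicates, and had too few cells in the other 5 libraries. Its Fn1 level exceeded that of fibroblast-like cells in all 4 of these libraries. The clusters were not made with Fn1, and these values are descriptions with no test.

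In fibroblast-like cells, Dcn and Sparc had their highest levels in the P42 cauda. Dcn was at 8730.3, 5525 and 4514 CPM in the caput, 12544, 7167 and 5099 CPM in the corpus and 18853, 7121 and 4892 CPM in the cauda. Sparc was at 13581, 3739 and 2525 CPM, at 19533, 4745 and 3171 CPM and at 28278, 6419 and 3654 CPM in the same order. For both genes, the 3 P42 libraries lay above all 6 P56 libraries, and the segments overlapped.

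The other small leucine-rich proteoglycans showed the age order, and their highest segment was not the same at P42 as at P56. Lum was at 404, 200.03 and 99.97 CPM in the caput, 465, 149.9 and 82.7 CPM in the corpus and 1041, 101 and 96.8 CPM in the cauda. Ogn was at 2111, 985 and 751 CPM, at 1828, 762 and 465 CPM and at 2163, 628 and 324 CPM, and Bgn was at 537, 238 and 139 CPM, at 622, 163 and 131 CPM and at 812, 186 and 117 CPM. In all 3 genes every P42 library was above every P56 library. At P42 all 3 were highest in the cauda, and within P56 all 3 were highest in the caput in both replicates. The lowest segment was not shared, and Ogn was lowest in the cauda in both P56 replicates.

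Mgp and Sfrp1 were highest in the caput and lowest in the cauda in each of the 3 pools. Mgp was at 6624, 3556 and 2229 CPM in the caput, 4503, 1869.9 and 1174 CPM in the corpus and 3248, 1507 and 749.9 CPM in the cauda. Sfrp1 was at 1418, 1028 and 828 CPM, at 1205, 452 and 284 CPM and at 750.3, 277 and 167 CPM. Apod stood at 3152, 4017 and 3352 CPM in the caput, at 746, 546 and 423 CPM in the corpus and at 654, 999 and 702 CPM in the cauda. The 3 caput libraries were thus above the other 6 for Apod. Its P56 libraries lay above the P42 library in the caput and the cauda and below it in the corpus, whereas for the other 9 genes the P42 library was the highest of its segment in all 3 segments.

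Fn1 and Postn were lowest in the caput within each pool. Fn1 was at 19.2, 6.33 and 2.27 CPM in the caput, 63.2, 22.1 and 19.1 CPM in the corpus and 122, 13.2 and 15.3 CPM in the cauda, and these values rest on 3 to 893 UMIs per library. Postn was at 71.4, 10.1 and 3.03 CPM, at 224, 51.3 and 32.6 CPM and at 343, 25.1 and 15.3 CPM, from 4 to 2512 UMIs. In the caput the background cells held 18.9, 0 and 5.46 CPM of Fn1 and 15.7, 14.0 and 2.19 CPM of Postn. Fn1 was thus near the background at P42 and below it in P56 replicate 2, and Postn was above it at P42 but not in P56 replicate 1. In the cauda the background was 56.3, 0 and 0 CPM of Fn1 and 65.4, 3.03 and 0 CPM of Postn. Fibroblast-like Fn1 and Postn in the P42 cauda were 2.17- and 5.24-fold of it, and its part in the order of segments was not tested.

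**Figure D2:**
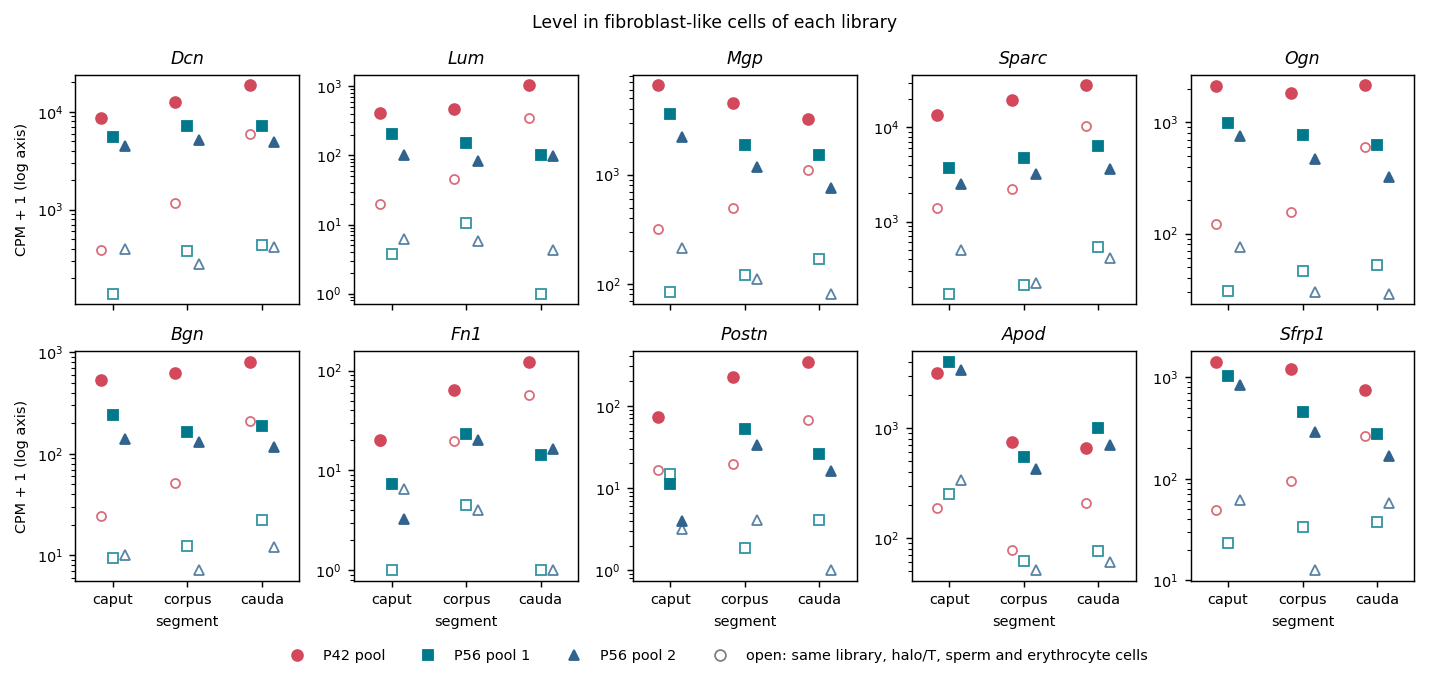
Level in fibroblast-like cells (filled, CPM + 1 on a log axis) of each gene by segment, 1 point per library, with the background cells of the same library as open symbols (circles, P42; squares, P56 replicate 1; triangles, P56 replicate 2). The caput points of Apod (3152 to 4017 CPM) stand above those of the other segments (423 to 999 CPM), and the red P42 points stand above both P56 replicates for the other 9 genes.

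Whether the segments differed in fibroblast-like cells was tested across 10954 genes by edgeR's quasi-likelihood F test, blocked by pool, with Benjamini-Hochberg adjustment. A gene was called at an adjusted p under 0.05 and a log2 range of at least 1 between its highest and lowest segment. Of the members 5 of 10 were called, against 11.6% of all genes tested (5.75% highest in the caput, 2.95% in the cauda and 2.86% in the corpus). By the fit, Apod, Mgp and Sfrp1 were highest in the caput, Fn1 in the cauda and Postn in the corpus. In CPM, both Fn1 and Postn were highest in the cauda at P42 and in the corpus in both P56 replicates. From caput to cauda, Apod changed by -1.96 ± 0.30 on the log2 scale (SE, adjusted p of edgeR's F test = 0.000508), Sfrp1 by -1.54 ± 0.28 (adjusted p = 0.0107 by edgeR) and Mgp by -1.08 ± 0.26 (adjusted p = 0.0401 by edgeR). Fn1 changed by 2.40 ± 0.38 (adjusted p = 0.00562 by edgeR) and Postn by 2.09 ± 0.36 (adjusted p = 0.00504 by edgeR). Over the alternative fits the size of these changes ran from 1.82 to 6.87 for Fn1 and from 1.42 to 4.02 for Postn, the lowest without the P42 cauda and the highest under a strict gate on markers, where Fn1 was not called (adjusted p = 0.109 by edgeR). Dcn (0.73 ± 0.31), Sparc (0.99 ± 0.30), Lum (0.36 ± 0.35), Bgn (0.19 ± 0.23) and Ogn (-0.40 ± 0.25) were not called.

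Apod fell most between caput and corpus (-2.57 ± 0.31), and cauda minus corpus was 0.61 ± 0.30 for Apod, -0.57 ± 0.27 for Sfrp1, -0.32 ± 0.25 for Mgp, 0.24 ± 0.33 for Fn1 and -0.26 ± 0.32 for Postn, none of which passed (adjusted p of 0.575 to 0.932 by edgeR). The direction from caput to cauda of these 5 was the same in all 12 alternative fits. Apod was called in each of the 12, Fn1 and Postn in 10, Sfrp1 in 9 and Mgp in 6 (adjusted p of up to 0.612 in edgeR). Without the block of pools 1 of 10 was called (Apod), and without P56 replicate 1 and without P56 replicate 2 there were 2 and 3. The summed myoid and principal cell markers in fibroblast-like cells moved with the segments too. The 10 myoid markers came to 1328 to 1974 CPM in the caput and 135 to 363 CPM elsewhere, the 15 principal markers to 41310 to 116465 CPM in the caput and 2528 to 32166 CPM elsewhere, and their part in these results was not tested. A finer cluster of 804 cells described below, in which Apod, Mgp and Sfrp1 were low, had 16 caput, 280 corpus and 508 cauda cells. At the clustering resolution of 2, where the class does not include it, Apod (-1.84), Sfrp1 (-1.47), Fn1 (2.36) and Postn (2.49) were called and Mgp was at -0.94 with an adjusted p of 0.108 in edgeR.

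Other matrix genes were called in both directions too, where 11.6% of all 10954 genes were called. Of 10 fibrillar and associated collagens 6 were called, all highest in the cauda, with Col3a1 at 2.08 ± 0.26, Col1a1 at 1.58 ± 0.32, Col5a2 at 1.41 ± 0.22 and Col6a2 at 1.38 ± 0.24 (log2, cauda minus caput). Their median over 10 genes was 1.37, against 0.03 over all genes and 0.28 over the 10 members. Of 8 other proteoglycans 3 were called, Aspn and Hspg2 highest in the cauda and Fmod in the caput, and Ecm1, a secreted glycoprotein that had been listed with them, was called with its highest level in the corpus. Of 20 other matrix glycoproteins 6 were called, among them Efemp1 (highest in the corpus, 2.96 above the caput) and Thbs1 (2.30 ± 0.52, cauda minus caput), while Smoc2 (-2.21 ± 0.29) and Mfap4 (-1.71 ± 0.23) were highest in the caput as were Apod, Mgp and Sfrp1. The calls were 2 of 11 in the basement membrane (Lama4 and Lamc1) and 2 of 16 in matrix assembly and turnover (Adamts1 and Lox, both highest in the cauda). Among cell surface matrix receptors they were 2 of 13, the integrin subunit Itga8 (-2.13 ± 0.55) and the syndecan Sdc1 (-1.52 ± 0.24), both highest in the caput. The counts of these last lists lie near the share of all genes and are no result about the lists. Of 3 other secreted Wnt inhibitors tested, Sfrp4 was called (3.13 ± 0.49) with the opposite direction to Sfrp1.

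**Figure D3:**
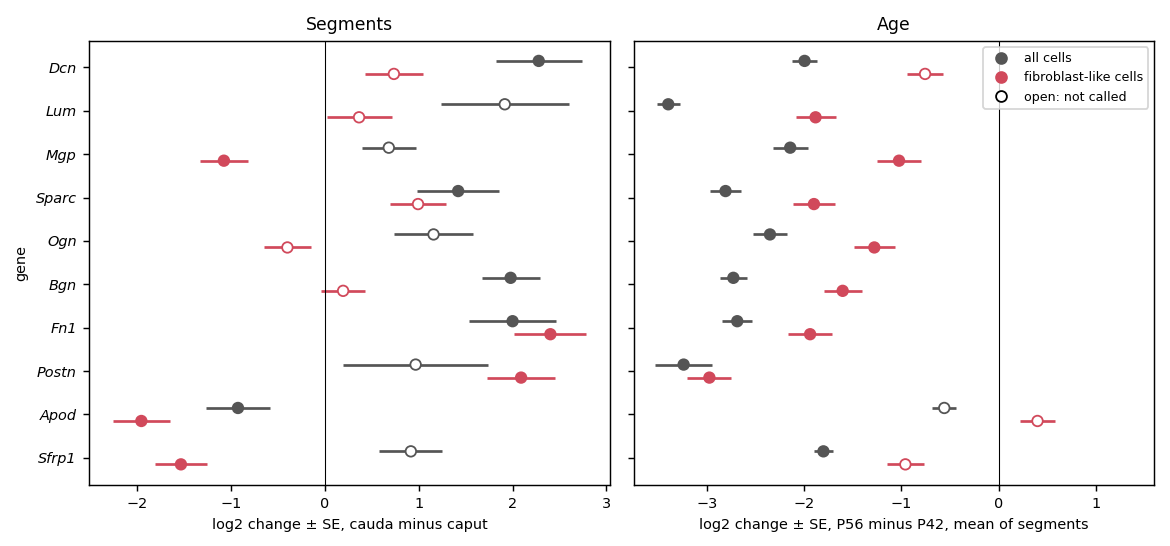
Fitted log2 changes ± SE of the 10 genes, cauda minus caput (left) and P56 minus P42 as the mean over segments (right), in all cells (grey) and in fibroblast-like cells (red), filled where called. Mgp, Sfrp1 and Ogn (1.16 and -0.40) lie right of 0 in all cells and left of 0 in fibroblast-like cells on the segment axis, and on the age axis every point except fibroblast-like Apod (0.40) lies left of 0.

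Between the ages, 7 of the 10 genes were lower at P56 in fibroblast-like cells. The contrast was the mean over segments of P56 minus P42 in edgeR, fitted on 12037 genes with 1 mean per segment and age, and the single P42 library of each segment is assumed to vary like the P56 libraries. Of all genes tested 19.6% were called, 11.9% lower at P56 and 7.68% higher. Postn fell by 2.97 ± 0.23 on the log2 scale (adjusted p = 1.33e-06 by edgeR), from 71.4 to 343 CPM at P42 to 3.03 to 51.3 CPM at P56. Fn1 changed by -1.94 ± 0.23, Sparc by -1.90 ± 0.21, Lum by -1.88 ± 0.21, Bgn by -1.60 ± 0.20, Ogn by -1.28 ± 0.21 and Mgp by -1.02 ± 0.23, with adjusted p between 1.1e-05 and 0.00293 in edgeR. Dcn (-0.76 ± 0.19, adjusted p = 0.00613 in edgeR) and Sfrp1 (-0.96 ± 0.19, adjusted p = 0.00125 in edgeR) passed the adjusted p and not the size. Apod was at 0.40 ± 0.18 (adjusted p = 0.104 in edgeR).

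Within segments, the change of Postn was -3.28 ± 0.49 (caput), -2.10 ± 0.34 (corpus) and -3.53 ± 0.34 (cauda), and that of Sparc was -1.78 ± 0.37, -1.98 ± 0.37 and -1.93 ± 0.37. The background of called genes differed between segments, with 1.36% of genes for the caput, 4.65% for the corpus and 33.1% for the cauda. Scaled by library totals alone, the median of all genes moved from -0.04 to -0.44 and Apod to -0.01. Without P56 replicate 2, 3 of 10 were called (Postn, Fn1 and Bgn), and with the 3 cauda libraries left out, an alternative chosen after seeing the data, 7 of 10 were.

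Most collagens, proteoglycans, glycoproteins, basement membrane and assembly genes were lower at P56 in fibroblast-like cells as well, and most receptors and Wnt inhibitors did not pass. All 10 collagens were called lower, with Col1a1 at -3.13 ± 0.29, Col5a1 at -2.95 ± 0.24, Col3a1 at -2.83 ± 0.22 and Col6a3 at -2.67 ± 0.21. Of the other proteoglycans 7 of 8 were lower, led by Aspn (-2.34 ± 0.18), Hspg2 (-1.88 ± 0.24), Fmod (-1.76 ± 0.19) and Prelp (-1.72 ± 0.21), as was Ecm1. Of the other matrix glycoproteins 17 of 20 were lower, with Eln, the core of elastic fibres, at -2.56 ± 0.23 and its partner Mfap2 at -2.32 ± 0.22, and with Thbs2 at -2.27 and Emilin1 at -1.996. Basement membrane genes (10 of 11, Col15a1 at -2.44 ± 0.20, Col4a1 at -2.03 ± 0.23, Nid2 at -1.85 and Col4a2 at -1.80) and genes of matrix assembly and turnover (16 of 18) were lower, the latter led by Mmp11 (-2.38 ± 0.68) and the cross-linking enzymes Lox (-2.38 ± 0.24), Loxl1 (-2.34 ± 0.21) and Loxl2 (-2.26 ± 0.21). Of the cell surface receptors 4 of 13 were lower (Itga5 at -2.43, Itga1 at -1.33, Sdc2 at -1.25 and Ddr2 at -1.004), and 0 of 3 secreted Wnt inhibitors passed. Of all genes tested, 11.9% were called lower. The median was -2.58 over the collagens, -1.44 over the members and -0.04 over all genes. In the same cells, the 12 fibroblast markers, which include 8 collagens, came to 18637 to 66489 CPM at P42 and 2388 to 7093 CPM at P56. The 10 macrophage markers came to 380 to 953 CPM and 89.4 to 326 CPM, the 10 endothelial markers to 80.4 to 208 CPM and 24.4 to 74.4 CPM, the 8 ciliated cell markers to 80.4 to 103 CPM and 23.2 to 60.8 CPM, the 15 principal markers to 2528 to 41310 CPM and 19858 to 116465 CPM, and the background cells held 381 to 5992 CPM of Dcn at P42 and 137 to 431 CPM at P56. Their part in the age results was not tested.

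The fibroblast-like cells of the ages fell in different finer clusters. At a higher clustering resolution, cluster 5 held 1327 P42 and 237 P56 cells, cluster 23 held 621 and 183, and cluster 9 held 274 and 999. Since cluster 23, led by Col6a5, Sult1e1, Slpi and Upk3b, had 16 of its 804 cells in the caput, the clusters are compared over the 5 corpus and cauda libraries in which each had at least 20 cells. There cluster 5 held the highest level of the 3 clusters in 5 of 5 libraries for Mgp (4721.5 ± 1362 CPM, SD), Apod (1410.1 ± 750.2 CPM), Sfrp1 (996 ± 373 CPM) and Bgn (556 ± 256 CPM). Cluster 23 held Dcn at 13029.5 ± 4317 and Sparc at 14056.5 ± 8655 CPM, against 14044 ± 4344 and 15682 ± 10830.1 CPM in cluster 5. It was the lowest in 5 of 5 for Mgp (587 ± 410 CPM) and Apod (128 ± 138 CPM) and in 4 of 5 for Sfrp1 (321 ± 181 CPM). All 6 mesothelial markers and 10 of 12 fibroblast markers were raised in cluster 23, so that at this resolution it no longer carried the fibroblast-like name, and the class fell from 3649 to 2896 cells. Cluster 9 was the lowest in 5 of 5 of these libraries for Dcn (6121 ± 3878 CPM), Sparc (7625 ± 7393 CPM) and Lum (187 ± 247 CPM). It was so too for Ogn, Bgn, Fn1 and Postn. For Lum, cluster 23 was the highest in 5 of 5 (598 ± 483 CPM).

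Within a finer cluster, part of the age order was kept. In cluster 5, Dcn was at 10476, 12553 and 19364 CPM in the P42 caput, corpus and cauda and at 9143 to 17770 CPM in the 5 P56 libraries, which overlap, while Sparc was at 16494 to 31567 CPM at P42 and 4684 to 15618 CPM at P56, which do not. Apod in the caput cells of cluster 5 was at 3860 CPM at P42 and at 8924 and 6449 CPM at P56. These clusters were made from the same cells, so that their levels are descriptions. With the class taken at this resolution, 8 of 10 genes were called lower at P56 (the 7 above and Sfrp1 at -1.06), while the part of the mix of clusters 5 and 9 in the age results was not tested.

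**Figure D4:**
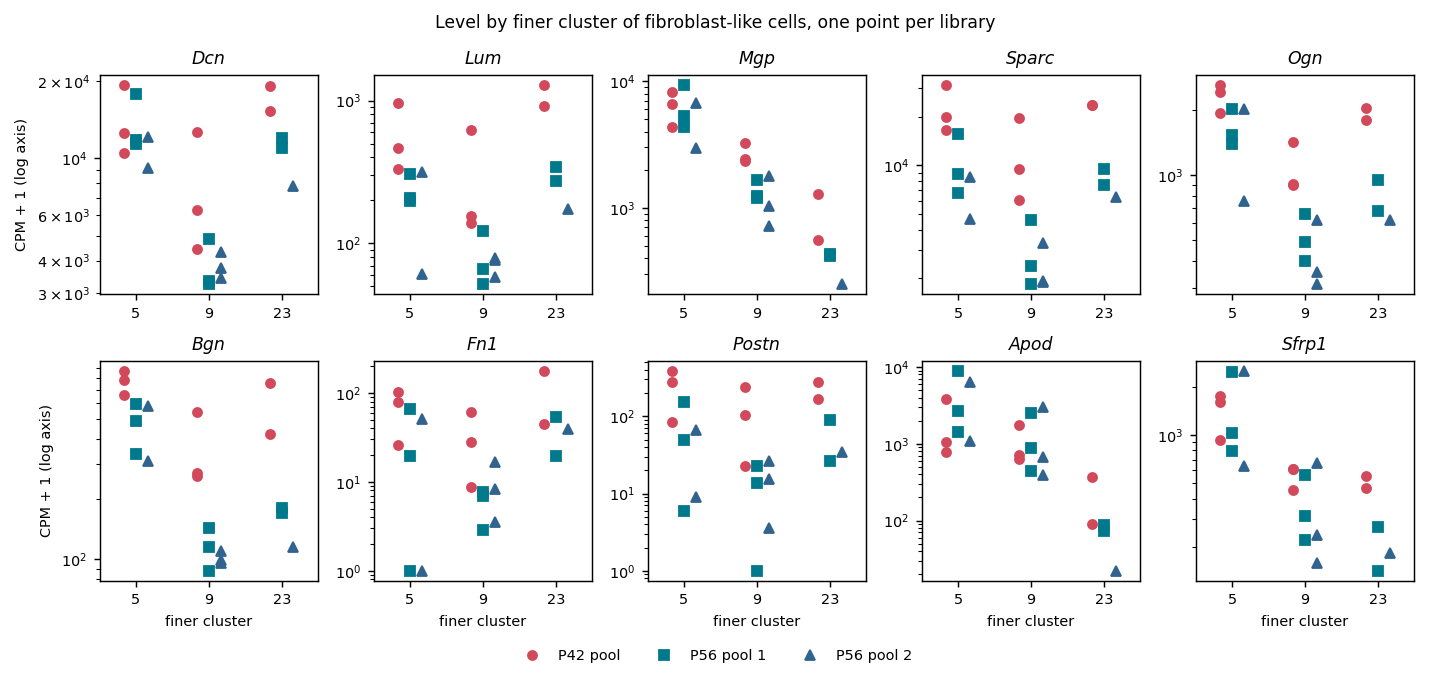
Level (CPM + 1, log axis) of each gene in the 3 finer clusters of fibroblast-like cells, 1 point per library with at least 20 cells (circles, P42; squares and triangles, P56 replicates 1 and 2). Cluster 23 has no caput point, and over the 5 libraries that all 3 clusters share, its means of Apod, Mgp and Sfrp1 (128, 587 and 321 CPM) and the cluster 9 mean of Dcn (6121 CPM) are the lowest.

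Summed over all cells except erythrocyte-like ones, more cells of a type and more RNA per cell cannot be told apart. The sums hold kept cells alone. Before and after the limits on cells, the P42 caput held 50655384 and 29779501 UMIs. The caput of P56 replicate 1 held 33881990 and 31671092 UMIs, and that of P56 replicate 2 held 37040481 and 35192243. The part of this loss in the sums was not tested. Fibroblast-like cells were 7.23%, 14.1% and 29.1% of the P42 caput, corpus and cauda and 2.74% to 6.72% of the P56 libraries. Unnamed cells, with a median of 1429 UMIs there, were 29.3% of the P42 cauda, against 1.20% to 6.53% elsewhere. Principal-like cells (median of 1682 UMIs) were 10.0% of it, against 37.8% to 62.7% elsewhere. Dcn was at 794, 245 and 365 CPM in the caput, 2346, 414 and 398 CPM in the corpus and 9989.9, 797 and 600.2 CPM in the cauda. Sparc reached 15440.3 CPM in the P42 cauda against 288 to 4005 CPM in the other 8 libraries. For both genes the P42 cauda held the highest level by far, and in each pool the cauda exceeded the caput for Dcn. For Sparc it did so at P42 and in P56 replicate 1 (437 against 917 CPM), but not in P56 replicate 2 (652 against 588 CPM).

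Between segments of all cells, 5 of 10 genes were called, against 24.6% of 19651 genes tested (11.4% highest in the caput, 7.15% in the corpus, 6.00% in the cauda). Dcn (2.28 ± 0.46 on the log2 scale, cauda minus caput), Fn1 (2.00 ± 0.46), Bgn (1.98 ± 0.31) and Sparc (1.42 ± 0.44) were highest in the cauda, with adjusted p of 0.00571 to 0.0386 in edgeR. Apod was highest in the caput (-2.52 ± 0.36, corpus minus caput, adjusted p = 0.00688 in edgeR). Mgp and Sfrp1, which fell from caput to cauda in fibroblast-like cells, stood at 0.68 ± 0.29 and 0.92 ± 0.34 over all cells and were not called. Principal-like Sfrp1 in the cauda of P56 replicates 1 and 2 was at 42.7 and 53.1 CPM, beside a background of 36.4 and 56.9 CPM. Its part in the sums was not tested. Without P56 replicate 1, 0 of the 10 were called (edgeR, with 4 at an unadjusted p under 0.05 and 8 called by DESeq2 on all libraries), and without the block 1 was. With the P42 cauda library left out, an alternative chosen after seeing the data, 5 were called where 34.6% of 19228 genes were.

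Over the ages, 9 of 10 genes were lower at P56 in all cells, against 19.7% of 21303 genes called, 13.7% lower and 5.97% higher. The changes ran from -1.80 ± 0.10 for Sfrp1 to -3.40 ± 0.12 for Lum, with Postn at -3.24 ± 0.30, and Apod at -0.56 ± 0.13 was under the size asked for. Dcn, taken by segment, changed by -1.02 ± 0.23 (caput), -1.88 ± 0.22 (corpus) and -3.08 ± 0.23 (cauda), where 3.56%, 10.7% and 32.2% of all genes were called. With 1 P56 replicate left out, no gene of the table was called by edgeR (9 members at an unadjusted p under 0.05 in each case, and 9 called by DESeq2 on all libraries). The fit with a replicate left out had segment and age without their interaction, unlike the main fit, as 1 library per segment and age remained. In all cells, the change between caput and cauda differed between the ages for 9 of 10 genes by edgeR's test of the interaction, against 18.4% of all genes. In fibroblast-like cells 0 of 10 passed, against 5.95% of all genes, and 1 (Lum) had an unadjusted p under 0.05. Whether the 2 sets of cells differ in this was not tested. The interaction was fitted without the block of pools, although the segments of a pool share mice. DESeq2 was not run on it.

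Myoid-like cells were named after smooth muscle markers. In both P56 cauda libraries they held less of the 10 myoid markers than caput fibroblast-like cells did, so that the name is weak there. In the caput, the 6 pericyte markers came to 109 to 747 CPM in them, against 10.6 to 44.5 CPM in fibroblast-like cells. Myoid-like cells held Bgn above the background in all 9 libraries, by 2.53- to 9.52-fold. Bgn in these cells was at 195, 46.7 and 23.04 CPM in the caput, 308, 41.2 and 58.0 CPM in the corpus and 905, 111 and 87.1 CPM in the cauda. Mgp was at 797, 155 and 259 CPM, at 1307, 272 and 435 CPM and at 2793, 815 and 451 CPM, and Apod at 537, 384 and 189 CPM, at 93.4, 45.3 and 52.2 CPM and at 866, 475 and 289 CPM. In each pool all 3 genes were highest in the cauda, and Apod was lowest in the corpus.

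**Figure D5:**
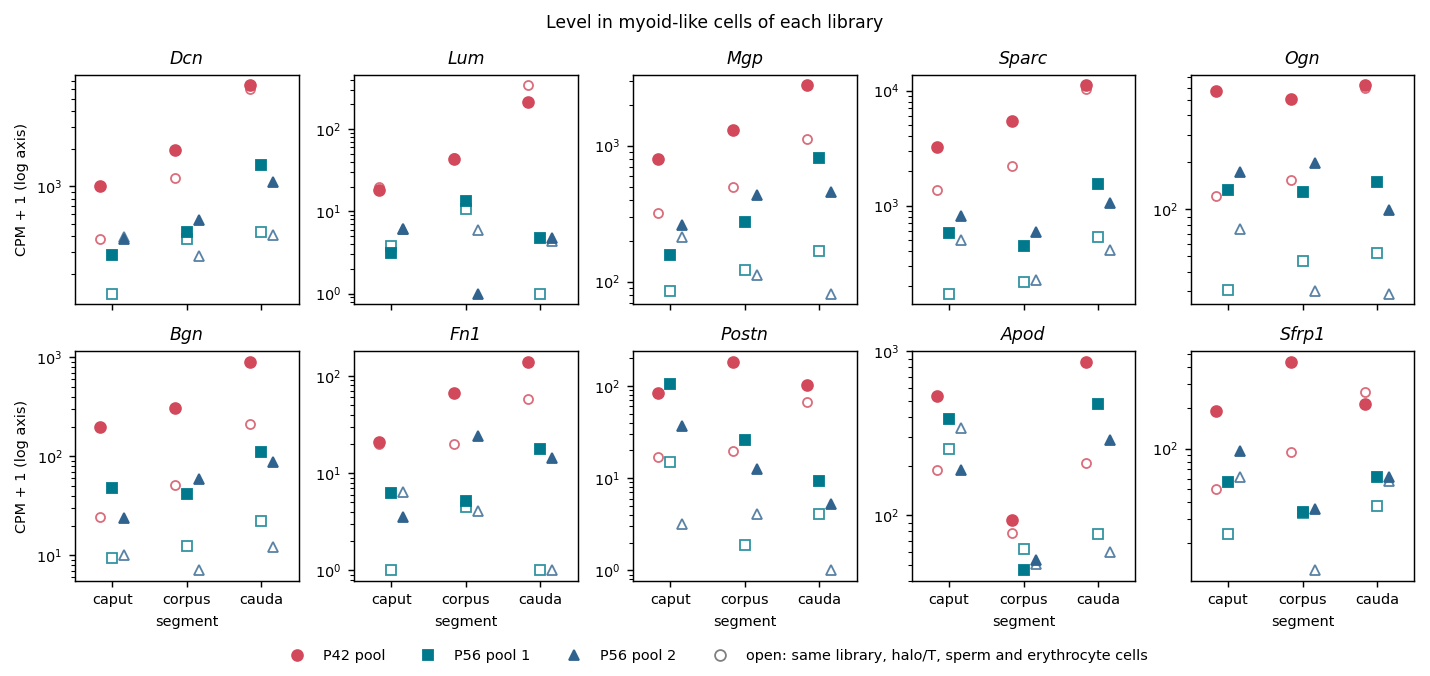
Level in myoid-like cells (filled) and in background cells of the same library (open), CPM + 1 on a log axis, by segment, with symbols as in the plot of fibroblast-like cells. Filled points of Bgn lie above the open ones in all 9 libraries, and in the P42 cauda those of Dcn (6508 against 5992 CPM) and Sparc (11207 against 10242 CPM) lie beside them.

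Between segments of myoid-like cells, 6 of 10 genes were called, all highest in the cauda, against 12.0% of 6738 genes (4.11% highest in the cauda, 5.31% in the caput, 2.58% in the corpus). From caput to cauda, Dcn changed by 2.49 ± 0.31, Fn1 by 2.48 ± 0.47, Bgn by 1.99 ± 0.29, Mgp by 1.98 ± 0.33 and Sparc by 1.47 ± 0.34 on the log2 scale, with adjusted p of 0.000109 to 0.00975 in edgeR. Apod was 3.23 ± 0.33 higher in the cauda than in the corpus (adjusted p of the F test = 3.98e-05 in edgeR), and cauda minus caput was 0.78 ± 0.27. Mgp and Apod thus had the cauda highest in myoid-like cells and the caput highest in fibroblast-like cells, a difference between classes that was not tested. Postn was at -1.82 ± 0.59 and not called (adjusted p = 0.136 in edgeR), and without the P42 cauda library, an alternative chosen after seeing the data, it was at -2.78 with an adjusted p of 0.00165.

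Of these calls, Dcn, Sparc and Fn1 rest in part on levels near the background or on few UMIs. In the P42 cauda, myoid-like Dcn and Sparc were each 1.09-fold of it, Ogn was 1.04-fold, and Sfrp1 (0.811-fold) and Lum (0.625-fold) were below. Fn1 in myoid-like cells came from 21, 5 and 1 UMIs in the caput, 14, 1 and 4 in the corpus and 68, 44 and 25 in the cauda, and in the caput it stood at 19.8, 5.31 and 2.56 CPM where the background was 18.9, 0 and 5.46 CPM. The 12 fibroblast markers in myoid-like cells came to 486 to 2112 CPM in the caput and 852 to 24078 CPM in the cauda. The 10 myoid markers of the class itself came to 7106, 3894 and 3793 CPM in the caput and to 12048, 1124 and 742 CPM in the cauda, so that both P56 cauda libraries held less of them than caput fibroblast-like cells did. The 15 principal markers came to 42842 to 131742 CPM in the caput and 3882 to 35389 CPM in the cauda. The part of these 3 lists in the result was not tested. Apod was 4.19- to 6.26-fold of the background in the cauda and 0.739- to 1.22-fold in the corpus, and Mgp was 2.52- to 5.61-fold in the cauda. Without the block 1 of the 10 genes (Apod) was called.

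Across classes and libraries, the genes whose pattern was most like each member were taken from 11333 genes by Pearson's r of log2(CPM + 1) over 90 points of 11 classes in 9 libraries, which share libraries and depth. Serping1, an inhibitor of complement, was the most alike for Dcn (0.963), Mgp (0.938), Ogn (0.929) and Sfrp1 (0.852). Serpinh1, a chaperone of collagen, was so for Sparc (0.969), Gsn for Lum (0.921), Ctsk for Bgn (0.928), Lamc1 for Fn1 (0.826), Rcn3 for Postn (0.829) and Pdgfra, a receptor that marks fibroblasts, for Apod (0.788). The second names were Serpinf1 (Dcn), Olfml2b (Lum), Fxyd1 (Mgp), Fkbp10 (Sparc), Matn2 (Ogn), Lox (Bgn), Dusp1 (Fn1), Nid1 (Postn), Snhg18 (Apod) and Olfml3 (Sfrp1). Among the members, r ran from 0.19 (Fn1 and Apod) to 0.899 (Dcn and Ogn), with a median of 0.774. Pdgfra and Serpinf1 are among the markers after which fibroblast-like cells were named, so that part of their likeness is built in. All these values of r are descriptions with no test.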

How the data were processed

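Single cells of 9 libraries (3 segments, 1 pool of 5 mice at P42 and 2 at P56) were analysed from the UMI counts deposited by the authors. Per the labels and the study's methods, reads were trimmed with fastp, aligned to GRCm38.p6 with STAR (2.7.3a), assigned to genes with featureCounts and counted with UMI-tools, with no normalisation. Barcodes whose prefix ends in 0 were taken as the P42 pool, the one whose titles carry no number. The table held 44869 barcodes and 307987941 UMIs. Cells with 300 to 4000 genes, at most 20000 UMIs and under 50% mitochondrial UMIs were kept (42087). Doublets were limited by these maxima alone and no caller was run. Cells were clustered (3000 variable genes without the 10 members, 50 components, 20 neighbours, leidenalg 0.10.2, resolution 1), and clusters were named from marker lists by thresholds set after the clusters were seen. The members and gene lists were chosen with earlier results of these data known.

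UMIs were summed per library and class (at least 10 cells for tests, 20 for levels). Segments were tested with edgeR (4.0.16) quasi-likelihood F tests, filterByExpr, TMM scaling and the pool of mice as a block. The block rests on the study's use of the same mice for all segments. In all cells, r of deviations from segment means was 0.146 to 0.736 within pools and -0.667 to 0.526 between pools. These deviations still hold age, so that r does not test the block. With segment by age means fitted, the correlation within pools was 0.0173 in all cells and 0.0736 in fibroblast-like cells. Ages were tested as the mean over segments in a model of segment by age means. Adjustment was Benjamini-Hochberg over all genes tested. Called means an adjusted p under 0.05 and, between segments, a log2 range of at least 1 or, between ages, an absolute log2 change of at least 1. Tests on simulated counts recovered 92% (segments, myoid-like cells) to 97.5% (ages, all cells) of 200 genes changed by a log2 of 2, with 5 to 14 other genes called. The simulated counts had 1 fixed spread for all genes and no effect of pool, of segment by age or of free RNA. These rates check the code and do not measure power in the data. DESeq2 (1.42.0), filters, scaling, gates and left-out pools were alternatives. Ages with a P56 replicate left out were fitted by segment and age without their interaction. Named genes were the 10 members, up to 4 called genes of each list by size of change, and the 2 most alike for each member. R 4.3.3 and Python 3.11.15 were used. Each pool is 1 library per segment. Between segments, p-values rest on the spread left after pool and segment are fitted. Between ages and for the interaction, they rest on the spread between the P56 replicates within segments. There the P42 pool adds no spread, and the libraries of a pool are treated as independent. Counts carry counting error that no interval is given for here.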

Additional observations from a re-analysis of the deposited data

Results flagged for a closer look

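In the sums over all cells except erythrocyte-like ones, the change from caput to cauda differed between the ages for 9 of the 10 genes (edgeR's test of the interaction, Benjamini-Hochberg adjusted over 21303 genes, of which 18.4% passed with a difference of at least 1 on the log2 scale). The cauda minus caput change at P56 less that at P42 was -3.80 for Postn (adjusted p = 0.0119 in edgeR), -3.33 for Lum (adjusted p = 0.00185 in edgeR), -2.14 for Fn1, -2.06 for Dcn, -1.89 for Ogn, -1.85 for Sparc, -1.44 for Bgn, -1.21 for Apod and -1.11 for Sfrp1. Mgp was at -0.97 and did not pass (adjusted p = 0.171 in edgeR). Lum, for example, was at 33.6 CPM in the caput and 557 CPM in the cauda at P42, and in P56 replicates 1 and 2 at 7.36 and 6.13 CPM in the caput and at 8.62 and 8.57 CPM in the cauda.

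Beside these values, fibroblast-like cells were 7.23% of the caput and 29.1% of the cauda cells at P42 and 2.74% to 6.72% in the P56 libraries, and the background cells held 18.9 CPM of Lum in the P42 caput, 344 CPM in the P42 cauda and 0 to 9.63 CPM at P56. Their part in the result was not tested. In fibroblast-like cells 0 of 10 genes passed, with 1 (Lum, -1.74) at an unadjusted p under 0.05, and adjusted p ran from 0.0665 to 0.947 in edgeR. The interaction was fitted without the block of pools. P42 is 1 pool, and a difference between pools cannot be told apart from one between ages.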

How the results depend on the processing

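Between segments of all cells, 5 members were called, 8 with DESeq2, 8 without a filter on low counts, 3 with TMM factors set to 1, 1 without the replicate block and 0 to 6 with a pool left out (0 without P56 replicate 1, 2 without P56 replicate 2). In fibroblast-like cells the 5 became 1 without the replicate block, 3 under a strict gate on markers and 2 to 5 with a pool left out, and in myoid-like cells the 6 became 1 without the replicate block and 5 to 6 with a pool left out. Between ages of all cells the 9 became 0 with either P56 replicate left out, and in fibroblast-like cells the 7 became 7 without replicate 1 and 3 without replicate 2. With a P56 replicate left out, the ages were fitted by segment and age without their interaction, so that the model changed too. With the pool as a random replicate block the ages kept counts of 9 and 7. The test of segment by age in fibroblast-like cells, with 0 called, gave 1 without a filter and 1 at a clustering resolution of 2, both chosen after seeing the data. The cause of these moves was not tested.

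The change from caput to cauda turned in sign for Postn in all cells (-0.31 to 2.02 with a pool left out, the lowest without P42, and -0.056 without the P42 cauda), for Lum in fibroblast-like cells (-0.29 to 0.86, the lowest without P42, and -0.13 without the P42 cauda), for Bgn there (-0.0017 with TMM factors set to 1, -0.083 to 0.35 with a pool left out, the lowest without P42, -0.040 under the strict gate) and, in myoid-like cells, for Ogn (-0.13 with TMM factors set to 1, -0.075 to 0.30 with a pool left out, the lowest without P56 replicate 1) and Sfrp1 (-0.095 with TMM factors set to 1). None of these was called. Fibroblast-like Apod between ages went to -0.0094 with TMM factors set to 1. All 60 alternative levels of the members in fibroblast-like cells moved by less than 1 SD. This SD is taken over libraries of all segments and ages and is wide, and other classes were not compared in this way.

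Counts over all genes moved as well. Between segments, the 4827 genes of all cells became 7433 without P42, 615 without P56 replicate 1 and 1232 without replicate 2. The 1266 of fibroblast-like cells became 2205 without a filter, 532 without the block, 2191, 396 and 565 with each pool left out in that order, 349 under the strict gate and 2257 without the P42 cauda, and the 809 of myoid-like cells became 1386, 346, 1575, 323 and 420 in the same order, and 1480 without the P42 cauda. Between ages, the 4192 of all cells became 0 without either P56 replicate and 2025 without the cauda libraries, and the 2355 of fibroblast-like cells became 1382 with DESeq2, 1011 and 350 without replicates 1 and 2, 931 under the strict gate and 969 without the cauda libraries. Genes lower at P56 were 69.7% of calls in all cells and 95.1% with TMM factors set to 1, and 60.7% in fibroblast-like cells, 47.5% with DESeq2 and 85.7% with TMM factors set to 1. In myoid-like cells, 44.3% of calls were highest in the caput and 54.7% with TMM factors set to 1. The strict gate left 87 myoid-like cells and could not be fitted. Fn1 and Postn in caput fibroblast-like cells rest on as few as 3 and 4 UMIs in a library, which limits their changes.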
